A study of Mus musculus with 17 samples.

Results

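Transcripts of 10 maternally methylated imprinted genes were examined in mouse male germ cells and testes that lacked Pld6, Dnmt3l or both. The genes were Snrpn, Peg3, Mest, Kcnq1ot1, Plagl1, Peg10, Nnat, Cdkn1c, Igf2r and Grb10, and they were taken by symbol from tables of 23980 genes. All 10 were found in both tables and passed the filter on low counts at both stages. The rule that chose them uses their imprint class and no measured value. In none of the 11 comparisons did any of the 10 differ beyond the threshold used here, a false discovery rate (FDR, the Benjamini-Hochberg adjusted p-value over all genes tested) under 0.05 with a change over 2-fold (edgeR).

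An imprinted gene is expressed mainly from the allele of a single parent. Its control region was methylated in the germ line of the mother or of the father, but not of both. At a maternally methylated locus the mark is laid down in the growing oocyte by DNMT3A with its cofactor DNMT3L. The zinc finger protein ZFP57, which binds a methylated hexamer, helps to keep it after fertilization. The mark is erased in primordial germ cells and is not restored in the male germ line, whereas somatic cells of a testis carry it on the maternal allele. Of the 10 genes, 7 (Snrpn, Peg3, Mest, Kcnq1ot1, Plagl1, Peg10 and Nnat) are known as paternally expressed, and 3 (Cdkn1c, Igf2r and Grb10) as maternally expressed in most tissues. DNA methylation was not analysed here, and the reads were not assigned to alleles.

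Poly(A)+ RNA had been sequenced in 17 libraries from C57BL6/J mice. Leptotene/zygotene (L/Z) spermatocytes, cells early in meiosis that were purified by flow sorting at 3 to 4 weeks of age, gave 2 libraries each of wild type (WT), Pld6 knockout (KO) and Dnmt3l KO. Whole testes at postnatal day 0 (P0), in which somatic cells outnumber the prospermatogonia, gave 2 WT, 4 Pld6 KO, 2 Dnmt3l KO and 3 double KO (DKO) libraries. PLD6 is a mitochondrial protein required for production of PIWI-interacting RNAs, small RNAs that guide silencing of transposons. The labels call the replicates biological but do not say how many animals a library holds, and they name no allele beyond the knockout, so p-values measure the spread between these libraries.

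Libraries held 5194238 to 14578341 fragments at L/Z and 9900346 to 23498968 at P0. Pld6 was at 0 CPM (counts scaled to a common library total with edgeR's TMM factors) in both L/Z Pld6 KO libraries. It was at most 0.201 CPM in the 7 P0 libraries lacking it. Dnmt3l was at 0 in both L/Z Dnmt3l KO libraries and at most 0.175 CPM in the 5 P0 libraries lacking it. Each targeted gene was thus at or near 0 where the labels name its knockout. How far this lay below WT is not given here. Dnmt3l was also at 0.495 CPM in replicate 1 of P0 Pld6 KO, against 2.57 to 14.6 in the other 3. Markers of prospermatogonia, a list of 7 that includes Dnmt3l, summed to 95.3 CPM there and to 159 CPM or more in the other 10 P0 libraries. Several libraries stood apart. The 45S rRNA gene Rn45s held 8.27% and 8.06% of fragments in replicate 1 of WT and of Pld6 KO at L/Z, and at most 0.301% in the other 4. At P0 it held 4.43% in replicate 1 of DKO and 0.104% to 0.981% in the other 6 libraries with a value, while it had no valid estimate in the 4 Pld6 KO libraries. Replicate 1 of Dnmt3l KO at P0 had the highest sum for meiotic markers, 212 CPM against 133 or less elsewhere. Summed markers of L/Z spermatocytes were 1908 to 3896 CPM in WT and Pld6 KO and 6452 and 6477 CPM in Dnmt3l KO at L/Z. Those of spermatogonia were 1414 to 1692 CPM in WT and Pld6 KO and 705 and 1203 CPM in Dnmt3l KO at L/Z.

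The start sites of these genes differ in how many CpG dinucleotides, the targets of DNA methylation, they hold. RefSeq promoter windows of 300 bases (250 before and 50 after the start, GRCm38.p6) were matched for 8 of the 10 genes, in 14 windows. They held 2 to 45 CpG, against a median of 7 over all 32851 windows. The Grb10 window at chr11:12037371-12037670 held 45 CpG, more than 98.1% of all windows, and the Igf2r window at chr17:12769657-12769956 held 34. The ZFP57 hexamer TGCCGC, searched on both strands (GCGGCA on the other), occurred in 6 windows of 5 genes and in 11.6% of all windows. The windows that hold it are printed below because they show the hexamer among the CpGs of a start site, 1 for each gene, 5′ to 3′ on the transcribed strand, with the hexamer in capitals. The other Mest window with it starts 3 bases downstream of the printed one.
Snrpn, minus strand, chr7:60005150-60005449: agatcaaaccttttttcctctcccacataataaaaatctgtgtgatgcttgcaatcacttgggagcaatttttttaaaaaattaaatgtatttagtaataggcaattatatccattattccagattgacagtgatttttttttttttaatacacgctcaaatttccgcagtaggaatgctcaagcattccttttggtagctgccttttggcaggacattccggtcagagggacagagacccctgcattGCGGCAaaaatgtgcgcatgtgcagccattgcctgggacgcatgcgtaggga
Mest, plus strand, chr6:30737800-30738099: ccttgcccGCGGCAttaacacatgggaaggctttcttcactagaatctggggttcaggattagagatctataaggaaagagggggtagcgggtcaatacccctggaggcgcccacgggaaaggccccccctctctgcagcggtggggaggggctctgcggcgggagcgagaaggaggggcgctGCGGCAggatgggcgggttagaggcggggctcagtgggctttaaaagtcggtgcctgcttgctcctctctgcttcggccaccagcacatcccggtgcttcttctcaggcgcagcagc
Plagl1, plus strand, chr10:13090582-13090881: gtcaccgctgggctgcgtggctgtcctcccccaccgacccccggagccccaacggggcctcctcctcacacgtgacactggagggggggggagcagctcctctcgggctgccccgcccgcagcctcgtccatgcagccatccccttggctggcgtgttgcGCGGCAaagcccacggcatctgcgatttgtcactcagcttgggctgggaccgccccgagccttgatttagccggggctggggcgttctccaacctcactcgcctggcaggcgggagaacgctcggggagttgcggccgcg
Nnat, plus strand, chr2:157559828-157560127: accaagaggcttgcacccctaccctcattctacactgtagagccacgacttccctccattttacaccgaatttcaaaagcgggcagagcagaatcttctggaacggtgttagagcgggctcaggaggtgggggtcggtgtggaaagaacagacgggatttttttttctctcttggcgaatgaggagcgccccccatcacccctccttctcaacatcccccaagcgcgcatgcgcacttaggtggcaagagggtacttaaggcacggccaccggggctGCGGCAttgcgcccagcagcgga
Grb10, minus strand, chr11:12037371-12037670: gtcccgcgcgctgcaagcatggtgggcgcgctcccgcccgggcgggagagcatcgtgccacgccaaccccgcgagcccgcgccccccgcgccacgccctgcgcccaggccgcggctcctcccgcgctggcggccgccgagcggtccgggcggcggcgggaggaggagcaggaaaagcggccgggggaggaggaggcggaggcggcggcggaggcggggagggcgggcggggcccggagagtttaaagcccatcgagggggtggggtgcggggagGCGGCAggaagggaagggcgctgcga
The Mest window held 2 copies and the others 1. The windows of Peg3 (13 CpG), Kcnq1ot1 (9 CpG) and Igf2r did not hold these 6 letters. All windows were taken by start site and were not matched to the control regions. Presence or absence of the hexamer in them therefore says nothing of sites in those regions. Zfp57 itself was at 3.20 to 5.36 CPM at L/Z and 41.1 to 51.9 CPM at P0.

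The levels of the 10 genes were compared per length, as FPKM (fragments per kilobase of transcript, scaled to the library total), within each stage. At P0, Plagl1, a zinc finger transcription factor of growth control, was the highest, with a median of 246 FPKM (182 to 315 over 11 libraries), above 98.6% or more of all genes in every library. Mest, a hydrolase family protein of mesodermal tissue, followed at a median of 125 FPKM, then Grb10, an adaptor that dampens insulin receptor signalling, at 108, and Peg3, a zinc finger protein, at 81.5. Nnat, a membrane proteolipid, was at 56.5 FPKM, Cdkn1c, an inhibitor of cyclin-dependent kinases, at 41.1, and Igf2r, the receptor that clears insulin-like growth factor II, at 26.7. Peg10, derived from a retrotransposon, was at 17.03 FPKM and Snrpn, a small nuclear ribonucleoprotein component, at 9.05. The ranges of neighbours in this order overlapped down to Snrpn. Kcnq1ot1, a long noncoding RNA antisense to Kcnq1 that silences its cluster in cis, stood apart below them at 0.565 FPKM (0.361 to 1.99).

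In L/Z spermatocytes the order was different. Grb10 (median 19.9 FPKM, 12.3 to 29.8) and Igf2r (18.0, 13.6 to 28.7) overlapped at the top, and every Igf2r value lay above those of the other 8 genes. Cdkn1c followed at 9.79 FPKM, then Peg10 at 5.43, Peg3 at 4.595, Nnat at 3.92, Mest at 3.69, Snrpn at 3.68 and Plagl1 at 2.31, each overlapping the next. Kcnq1ot1 was again apart at the bottom, at 0.241 FPKM (0.108 to 0.492). The tables were scaled separately and differ in tissue and read type, so no test was made between them. The 3 highest genes at L/Z were the 3 known as maternally expressed, though Cdkn1c overlapped Peg10. The 2 highest at P0, Plagl1 and Mest, are known as paternally expressed, but Grb10, known as maternally expressed, came next and overlapped Mest. Counts were small for several genes at L/Z. Nnat had 14 to 73 fragments a library, Mest 37 to 126 and Snrpn 29.8 to 112, whereas at P0 every gene but Snrpn had at least 323 fragments in every library.

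**Figure D1:**
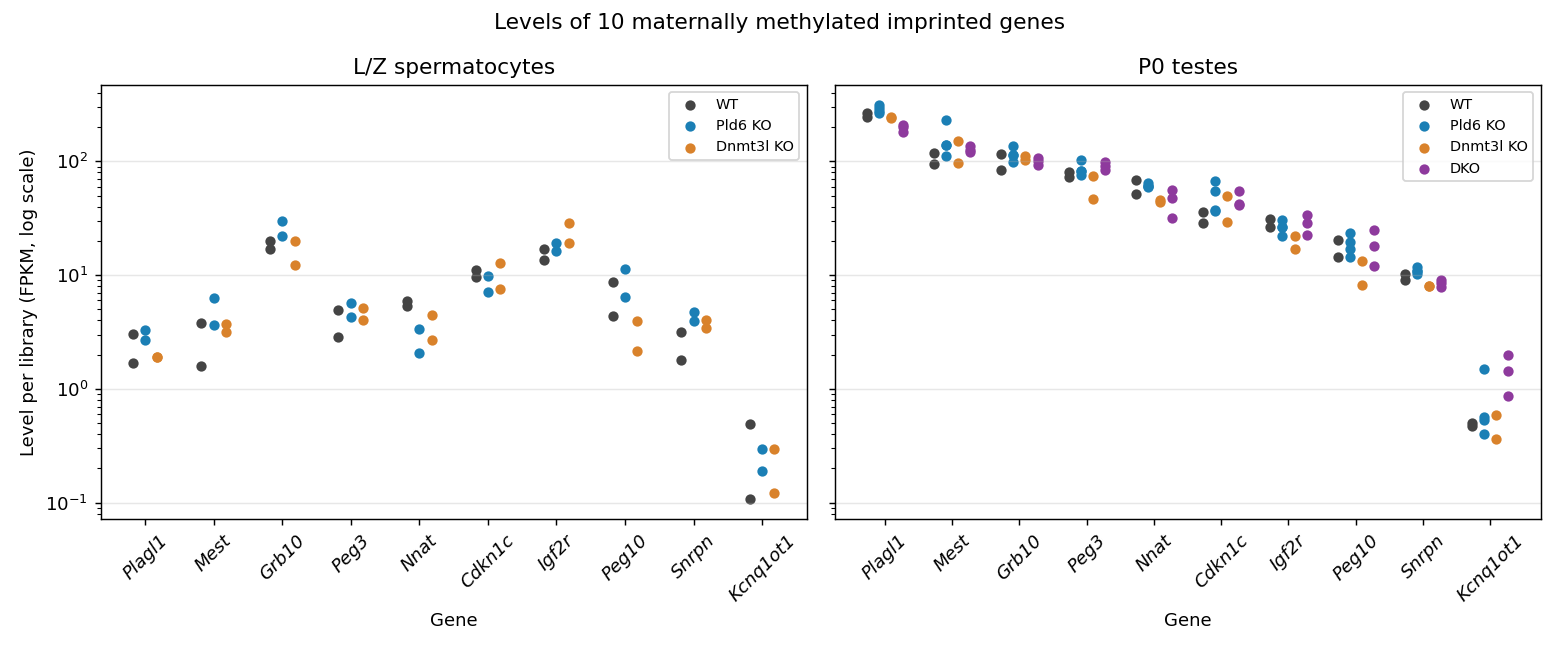
Level of each gene in every library, in FPKM on a log scale, with L/Z spermatocytes at left and P0 testes at right and genotypes in colour. Genes are ordered by their P0 median, from Plagl1 (246 FPKM) to Kcnq1ot1 (0.565 FPKM), and at L/Z Grb10 and Igf2r lie highest.

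The question of the comparisons was whether loss of the PIWI-interacting RNA pathway, of DNMT3L or of both altered these transcripts. Against WT at L/Z, 0 of 10 genes were called in Pld6 KO, where 0.225% of all genes tested were, and 0 of 10 in Dnmt3l KO, where 5.47% were. Between Dnmt3l KO and Pld6 KO at L/Z the counts were 0 of 10 and 0.0477%. At P0 each mutant gave 0 of 10 against WT, where the background was 0.00629% for Pld6 KO, 0% for Dnmt3l KO and 0.0126% for DKO, and likewise in DKO against Pld6 KO (0%) and against Dnmt3l KO (0.0755%). No gene of the 10 was called as departing in DKO from the added effects of the single mutants either (0%), nor any difference between the effects at L/Z and P0 of Pld6 KO (0.0121%) or of Dnmt3l KO (0.665%). With the DESeq2 Wald test, Peg10 was called in both Dnmt3l KO comparisons at L/Z and Igf2r in the stage difference of Dnmt3l KO. With limma on FPKM, 0 were called.

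At an unadjusted p under 0.05 the counts were as follows. Pld6 KO against WT at L/Z gave 1 of 10 (9.17% of all genes), Dnmt3l KO 2 of 10 (26.7%) and the comparison of these mutants 2 of 10 (17.5%). At P0 each mutant gave 1 of 10 against WT (5.06% of all genes for Pld6 KO, 12.9% for Dnmt3l KO, 7.97% for DKO), and 4 of 10 in DKO against Pld6 KO (6.02%) and against Dnmt3l KO (17.8%). The departure from additivity gave 1 of 10 (10.9%), and so did the stage difference of Pld6 KO (9.52%) and of Dnmt3l KO (17.2%). The median log2 difference of the 10 from WT was 0.34 in Pld6 KO and -0.11 in Dnmt3l KO at L/Z, where the medians of all genes were 0.0042 and -0.037. At P0 it was 0.17 for Pld6 KO, -0.14 for Dnmt3l KO and 0.054 for DKO, against 0.019, 0.030 and 0.014 over all genes. These medians shifted with single libraries, most at L/Z. With any 1 library left out, they ranged from 0.024 to 0.70 for Pld6 KO and from -0.25 to 0.22 for Dnmt3l KO at L/Z, and at P0 from 0.087 to 0.25 for Pld6 KO, from -0.25 to -0.11 for Dnmt3l KO and from -0.053 to 0.18 for DKO. The P0 comparisons with WT share the same 2 WT libraries.

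Groups whose libraries did not overlap were common among all genes with so few replicates. At L/Z, 2 members lay higher and 1 lower in every library of Pld6 KO than of WT (21.6% and 21.3% of all genes). Dnmt3l KO had 2 higher and 2 lower than WT (28.1% and 27.5%), and 1 higher and 3 lower than Pld6 KO (26.9% and 26.2%). At P0, 2 members were higher and 0 lower in Pld6 KO than in WT (5.83% and 5.69%), and 0 were higher and 4 lower in Dnmt3l KO (25.3% and 24.3%). DKO had 4 higher and 2 lower than WT (15.7% and 13.4%), 0 higher and 3 lower than Pld6 KO (3.31% and 3.04%), and 3 higher and 1 lower than Dnmt3l KO (19.4% and 18.7%). The 3 below Pld6 KO were Plagl1, Snrpn and Nnat.

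The precision differed between the stages. The median standard error (SE) of the 10 log2 differences was 0.36 to 0.37 at L/Z and 0.17 to 0.23 in the pairwise P0 comparisons. The 95% interval lay within a 2-fold change either way for 7, 7 and 8 of 10 genes in Pld6 KO, Dnmt3l KO and DKO against WT at P0, but for 1 and 3 of 10 in Pld6 KO and Dnmt3l KO at L/Z. A 2-fold change of most members was therefore not excluded by the interval at L/Z.

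**Figure D2:**
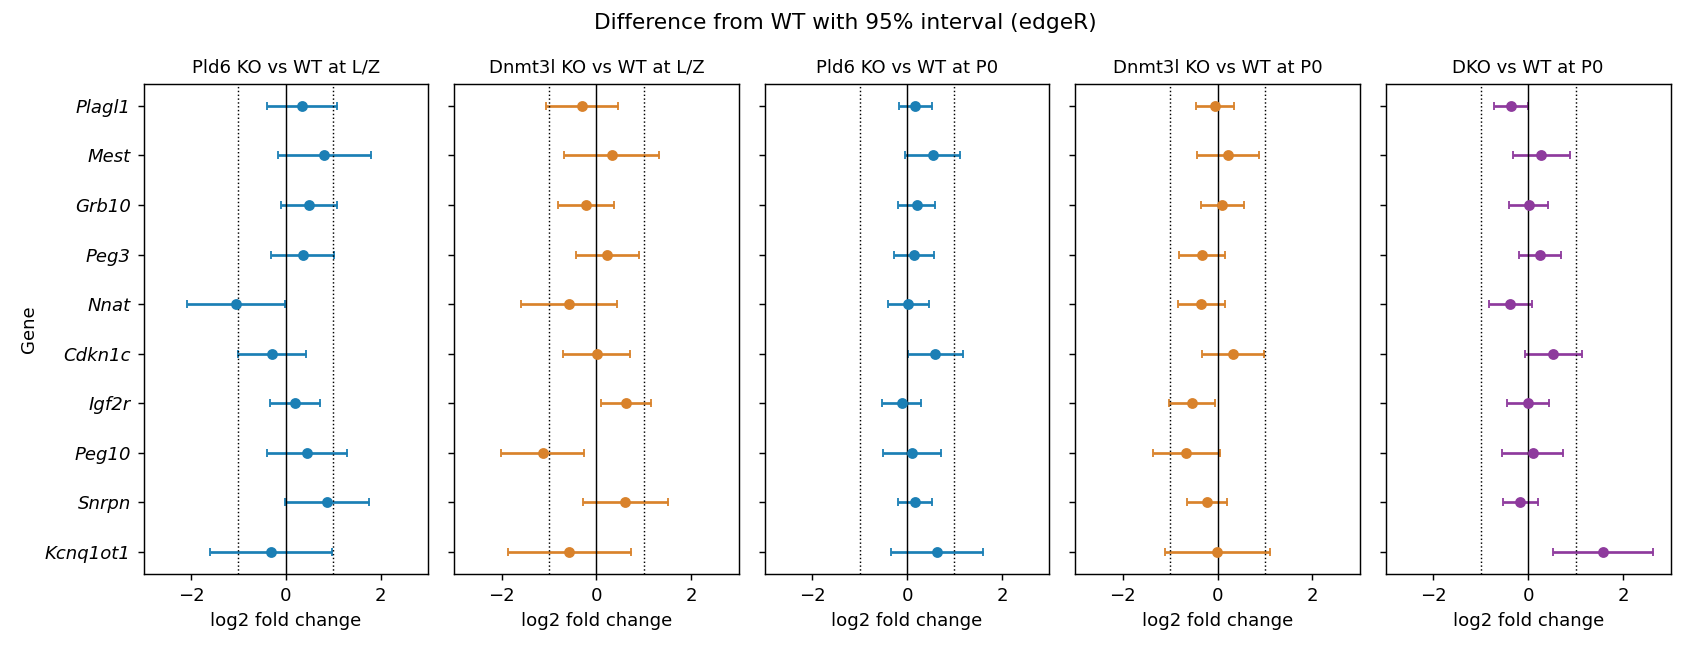
Log2 difference from WT for each gene in 5 mutant groups, with 95% intervals (edgeR), a solid line at 0 and dotted lines at a 2-fold change. Intervals are wider at L/Z than at P0, and those clear of 0 are Nnat in L/Z Pld6 KO, Igf2r and Peg10 in L/Z Dnmt3l KO, Cdkn1c in P0 Pld6 KO, Igf2r in P0 Dnmt3l KO and Kcnq1ot1 in P0 DKO, none of which passed the adjusted threshold.

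Peg10 (chr6:4747306-4760517), a gene required in the placenta, gave the largest difference at L/Z. It was at 56.5 and 28.5 CPM in the WT libraries, 73.7 and 42.4 in those of Pld6 KO and 25.2 and 14.2 in those of Dnmt3l KO, so both Dnmt3l KO libraries lay below all 4 others. The log2 difference of Dnmt3l KO was -1.14 from WT (SE 0.40, FDR 0.101, edgeR) and -1.58 from Pld6 KO (SE 0.40, FDR 0.128, edgeR). Groups that did not overlap in this direction made up 27.5% and 26.2% of all genes in these comparisons. With DESeq2 the FDRs were 0.0361 and 0.00613, and without the filter on low counts 0.0463 and 0.0320 (edgeR). Without replicate 2 of WT the log2 difference from WT was -1.55, and without replicate 1 or 2 of Pld6 KO it was -1.13 in each case (edgeR). The Pld6 KO libraries enter this comparison only through the filter, scaling and estimate of spread that all libraries share. Without replicate 1 of WT the log2 difference from WT was -0.56, and without replicate 2 of Dnmt3l KO it was -0.75 (edgeR). Against Pld6 KO it was -1.92 without replicate 2 of Pld6 KO and -1.58 without replicate 1 or 2 of WT (edgeR). The values against Pld6 KO with 1 library left out ran from -2.04 to -1.13, the latter without replicate 1 of Pld6 KO (edgeR). With a factor for the libraries rich in Rn45s the log2 differences were -0.62 (FDR 0.240, edgeR) and -1.09 (FDR 0.181, edgeR).

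Somatic transcripts also differed between the L/Z libraries. The summed level of 8 Sertoli cell markers, none of which was at 0, was 627 and 406 CPM in the WT libraries, 614 and 396 in those of Pld6 KO and 383 and 110 in those of Dnmt3l KO. They were lowest in both Dnmt3l KO libraries, as Peg10 was, and 0 of the 8 markers were called, with a median log2 difference of -1.24 from WT. The part of Sertoli cells in the Peg10 values was not tested. In replicate 2 of Dnmt3l KO both Peg10 (14.2 CPM) and the Sertoli sum were the lowest of all 6 libraries. Markers of Leydig cells, low throughout, were also lowest there, at 6.298 CPM against 6.599 to 17.9 in the other 5 libraries. The remaining somatic lists were not low there. Mesenchyme markers summed to 193 CPM in that library, against 90.8 to 323 in the other 5, endothelial markers to 26.8 CPM (9.01 to 33.9 in the others) and blood and macrophage markers to 27.8 CPM, the highest of the 6. Fewer cells of a type and less RNA per cell cannot be told apart in such bulk libraries. At P0, Peg10 was at 134 and 94.3 CPM in the WT libraries, 95.4 to 155 in those of Pld6 KO, 54.9 and 89.6 in those of Dnmt3l KO and 80.1 to 166 in those of DKO. Dnmt3l KO again lay below WT, by a log2 difference of -0.66 (SE 0.33, FDR 0.408, edgeR). Without replicate 1 of Dnmt3l KO, the library with the highest sum of meiotic markers, this was -0.35 (FDR 0.812, edgeR).

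Igf2r (chr17:12682406-12769706) lay on opposite sides of WT at the 2 stages in Dnmt3l KO. At L/Z it was at 150 and 119 CPM in the WT libraries, 166 and 143 in those of Pld6 KO and 247 and 169 in those of Dnmt3l KO, which lay above the other groups. At P0 it was at 238 and 274 CPM in the WT libraries, 195 to 273 in those of Pld6 KO and 155 and 198 in those of Dnmt3l KO, which lay below WT. In DKO at P0 it was at 306, 201 and 261 CPM, overlapping WT and lying above Dnmt3l KO. The log2 difference of Dnmt3l KO from WT was 0.63 at L/Z (SE 0.24, FDR 0.126, edgeR) and -0.53 at P0 (SE 0.22, FDR 0.350, edgeR). The difference between these effects was 1.11 (SE 0.33, unadjusted p = 0.0044, FDR 0.115, edgeR), where 17.2% of all genes reached an unadjusted p under 0.05. It was 1.15 with DESeq2 (FDR 0.0448) and 0.93 without replicate 1 of P0 Dnmt3l KO (FDR 0.332, edgeR). Stage, tissue and read type cannot be told apart in it. Its departure in DKO from the added single-mutant effects was 0.65 (SE 0.28, FDR 0.446, edgeR). With the offset for GC content and length, chosen after seeing the data, this departure was 0.12 and the P0 difference of Dnmt3l KO from WT was -0.24 (FDR 0.988 and 0.824, edgeR). With 1 library left out, the L/Z difference of Dnmt3l KO ranged from 0.31 to 0.88. Airn, the noncoding RNA that overlaps Igf2r in antisense and silences it in cis, was at 0.0789 to 0.600 CPM in 5 L/Z libraries, at 0 in the other 1 and at 7.73 to 18.7 CPM at P0. The strand setting of the counting is not given in the sources used here, so reads of such a pair may not have been separated.

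**Figure D3:**
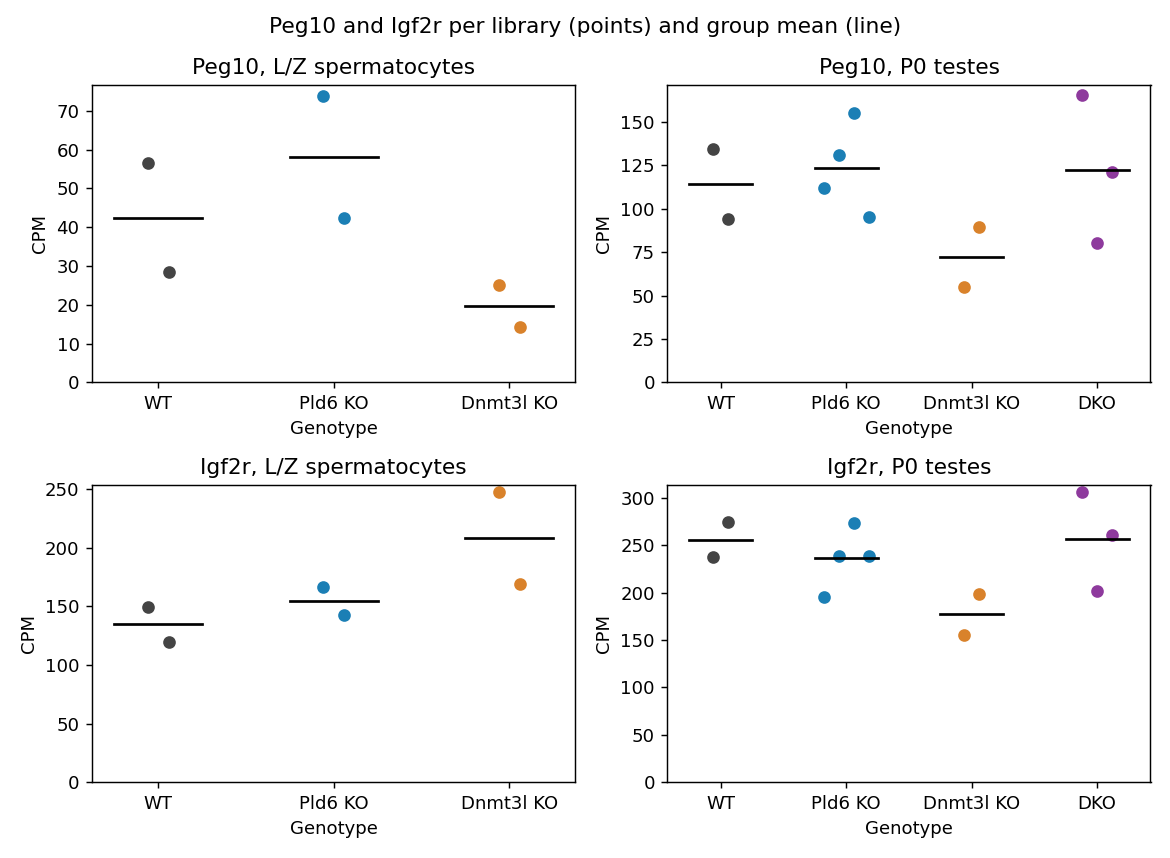
CPM of Peg10 (top) and Igf2r (bottom) in L/Z spermatocytes (left) and P0 testes (right), with a point for each library and a line at the group mean. Peg10 is lowest in Dnmt3l KO at L/Z (25.2 and 14.2 CPM), and Igf2r in Dnmt3l KO lies above WT at L/Z and below WT at P0.

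Kcnq1ot1 (chr7:143213111-143296547) gave the largest difference at P0. It was at 42.5 and 39.5 CPM in the WT libraries, 126, 48.1, 45.1 and 34.4 in those of Pld6 KO, 51.0 and 30.7 in those of Dnmt3l KO and 171, 124 and 74.3 in those of DKO. All 3 DKO libraries lay above WT and Dnmt3l KO, whereas replicate 1 of Pld6 KO lay among them. The mean was 123 ± 48.4 CPM (SD, n = 3) in DKO and 41.0 ± 2.08 CPM (SD, n = 2) in WT. The log2 difference of DKO was 1.58 from WT (SE 0.49, FDR 0.410, edgeR), 1.59 from Dnmt3l KO (SE 0.49, FDR 0.142, edgeR) and 0.95 from Pld6 KO (SE 0.38, FDR 0.798, edgeR). Groups apart in this direction made up 15.7% of all genes in DKO against WT and 19.4% against Dnmt3l KO. The FDR of DKO against WT was 0.0303 when these 2 groups were fitted alone (edgeR). Without replicate 1 of Pld6 KO, the FDR against Dnmt3l KO was 0.0491 and the log2 difference of Pld6 KO from WT was 0.054 in place of 0.63 (edgeR). Without replicate 1 of DKO the log2 difference of DKO from WT was 1.27 (FDR 0.675, edgeR). In L/Z cells the gene was at 41.2 and 9.01 CPM in the WT libraries, 24.9 and 15.9 in those of Pld6 KO and 24.2 and 10.4 in those of Dnmt3l KO, with all groups overlapping.

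Other transcripts, chosen after their values were seen, were high in the same P0 libraries as Kcnq1ot1. Malat1, a nuclear noncoding RNA, was at 1713 and 1465 CPM in the WT libraries, 3718, 1080, 972 and 847 in those of Pld6 KO, 1813 and 1541 in those of Dnmt3l KO and 5362, 3116 and 1367 in those of DKO. Its highest libraries were replicate 1 of Pld6 KO and replicates 1 and 2 of DKO, the same 3 as for Kcnq1ot1. Lars2, which encodes the mitochondrial leucyl-tRNA synthetase and was at 26728 and 28587 CPM in the 2 L/Z libraries rich in Rn45s but at most 439 CPM in the other 4, reached 18625 CPM in replicate 1 of DKO and 7892 CPM in replicate 1 of Pld6 KO, against 121 and 198 CPM in WT. Rn45s was at 4.43% of fragments in that DKO library, the highest for Kcnq1ot1 as well, and had no valid estimate in Pld6 KO at P0. Lars2 was also high in replicate 4 of Pld6 KO (6623 CPM), where Kcnq1ot1 was not. At L/Z, Kcnq1ot1 and Malat1 were likewise highest in replicate 1 of WT (41.2 and 444 CPM), which is rich in Rn45s. The other L/Z library rich in Rn45s, replicate 1 of Pld6 KO, had Kcnq1ot1 at 24.9 CPM. Replicate 1 of Dnmt3l KO, with 0.244% Rn45s, had it at 24.2 CPM. The 3 genes most like Kcnq1ot1 over the 11 P0 libraries, by Pearson's r of log2 CPM among the 12546 genes averaging 50 counts or more, were Gm10471 (r = 0.95), 5031410I06Rik (r = 0.91) and Ccdc82 (r = 0.91). With GC content and transcript length entered as an offset, a setting chosen after seeing the data, the log2 difference of DKO was 0.95 from WT (FDR 0.674, edgeR), 0.58 from Dnmt3l KO (FDR 0.835, edgeR) and -0.0099 from Pld6 KO (FDR 0.998, edgeR). The part of library composition in the Kcnq1ot1 values was not tested further.

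**Figure D4:**
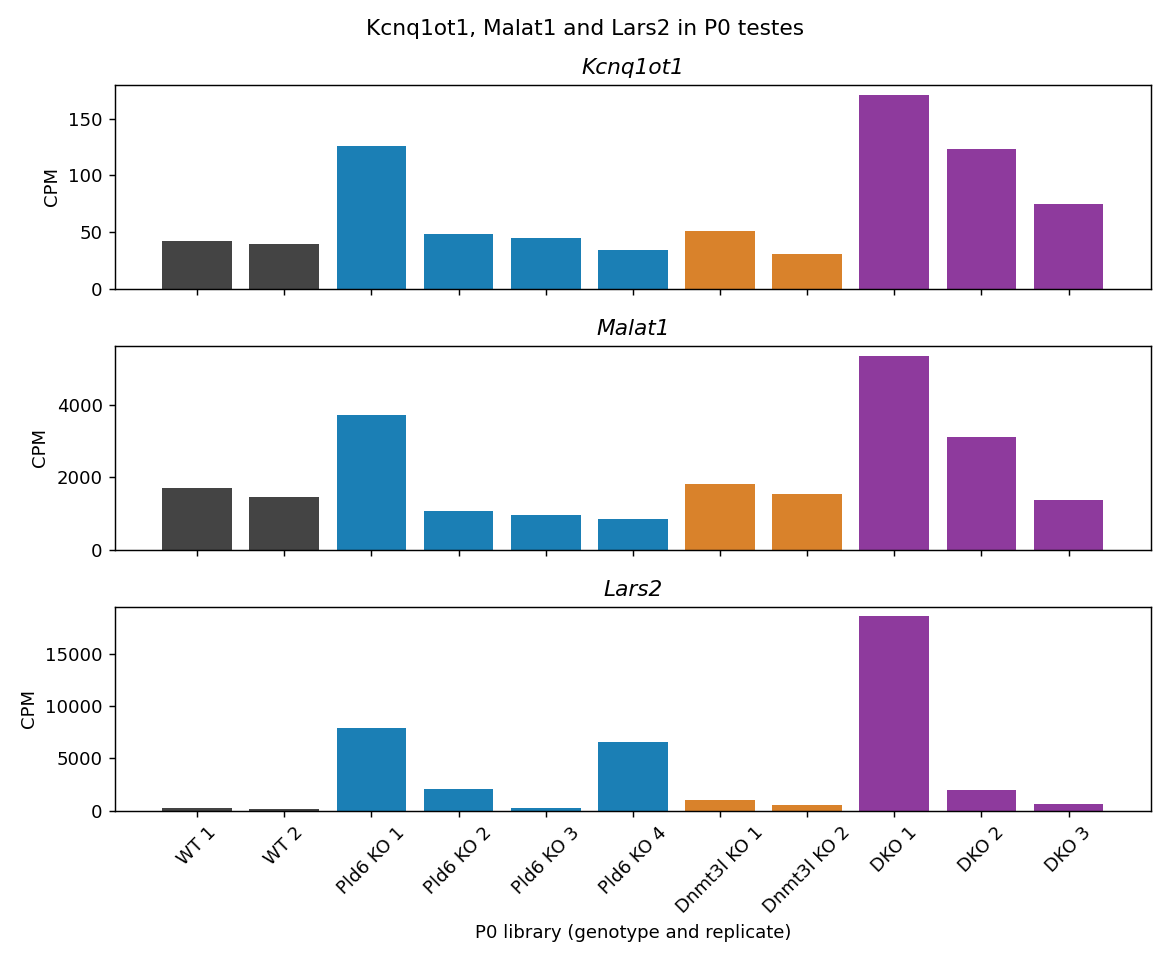
CPM of Kcnq1ot1, Malat1 and Lars2 in each P0 library, in bars from 0, coloured by genotype. Replicate 1 of Pld6 KO and replicates 1 and 2 of DKO are the 3 highest for Kcnq1ot1 (126, 171 and 124 CPM) and for Malat1, and Lars2 is highest in replicate 1 of DKO (18625 CPM).

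Cdkn1c (chr7:143458339-143461059) lies in the same cluster and is silenced in cis on the paternal allele where Kcnq1ot1 is transcribed. At P0 it was at 51.5 and 62.8 CPM in the WT libraries, 96.2, 66.0, 64.3 and 119 in those of Pld6 KO, 53.9 and 89.3 in those of Dnmt3l KO and 73.9, 76.4 and 97.3 in those of DKO. All Pld6 KO and DKO libraries lay above WT. The log2 difference was 0.60 in Pld6 KO (SE 0.27, FDR 0.963, edgeR) and 0.53 in DKO (SE 0.28, FDR 0.674, edgeR). Groups apart and higher made up 5.83% of all genes in Pld6 KO and 15.7% in DKO. In DKO both Cdkn1c and Kcnq1ot1 lay above WT in all 3 libraries. At L/Z Cdkn1c was at 12.2 to 22.3 CPM, with overlapping groups.

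Plagl1 (chr10:13090832-13131694) was the member whose DKO libraries lay below all other groups at P0. It was at 1275 and 1371 CPM in the WT libraries, 1384 to 1634 in those of Pld6 KO, 1262 and 1287 in those of Dnmt3l KO and 955, 1081 and 1056 in those of DKO. All 4 Pld6 KO libraries lay above WT and all 3 DKO libraries below every other library. The log2 difference of DKO was -0.54 from Pld6 KO (SE 0.14, unadjusted p = 0.0024, FDR 0.704, edgeR) and -0.36 from WT (SE 0.17, FDR 0.631, edgeR). Groups apart and lower made up 3.04% of all genes in DKO against Pld6 KO. With DESeq2 the FDR of this comparison was 0.00189 at a log2 difference of -0.55, a size under the 2-fold threshold. At L/Z, Plagl1 was at 15.5 and 8.67 CPM in the WT libraries, 13.7 and 16.8 in those of Pld6 KO and 9.60 and 9.88 in those of Dnmt3l KO.

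Nnat (chr2:157560078-157562525), which lies inside the gene Blcap, was at 6.18 and 5.53 CPM in the WT libraries, 3.49 and 2.21 in those of Pld6 KO and 2.799 and 4.795 in those of Dnmt3l KO at L/Z. Both mutants lay below WT, by a log2 difference of -1.06 in Pld6 KO (SE 0.47, FDR 0.532, edgeR) and -0.58 in Dnmt3l KO (SE 0.46, FDR 0.439, edgeR). At P0 Nnat was at 55.9 and 72.2 CPM in the WT libraries, 63.7 to 68.7 in those of Pld6 KO, 50.3 and 50.8 in those of Dnmt3l KO and 34.4, 62.2 and 51.5 in those of DKO. Dnmt3l KO lay below WT there, by a log2 difference of -0.34 (SE 0.23, FDR 0.533, edgeR), and DKO overlapped WT. Its Pld6 KO effect at L/Z minus P0 was -1.15 (SE 0.36, unadjusted p = 0.0057, FDR 0.417, edgeR), with as few as 14 fragments in a library at L/Z. Blcap was at 36.8 to 59.3 CPM at L/Z and 42.1 to 61.8 CPM at P0.

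Snrpn (chr7:59982495-60450177) shares a transcript with Snurf, and the authors' counting split fragments between these entries, so the value of either is uncertain. At L/Z Snrpn was at 3.22 and 5.61 CPM in the WT libraries, 7.27 and 8.83 in those of Pld6 KO and 5.999 and 7.37 in those of Dnmt3l KO, and both mutants lay above WT. The log2 difference was 0.87 in Pld6 KO (SE 0.41, FDR 0.543, edgeR) and 0.61 in Dnmt3l KO (SE 0.41, FDR 0.359, edgeR). Summed with Snurf, the values were 6.10 and 10.5 CPM in the WT libraries, 7.41 and 11.5 in those of Pld6 KO and 11.2 and 12.4 in those of Dnmt3l KO, and Pld6 KO overlapped WT. At P0 Snrpn was among the steadiest of the 10, at 14.7 to 21.5 CPM over 11 libraries. WT gave 16.7 and 18.7 CPM, Dnmt3l KO 15.3 and 15.0, and DKO 14.7, 16.0 and 16.7, so both mutants lay below WT, DKO by less than the rounding of these values. The log2 differences were -0.23 (SE 0.19, FDR 0.615, edgeR) and -0.16 (SE 0.18, FDR 0.864, edgeR).

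Peg3 (chr7:6703892-6730462) was at 484 and 531 CPM in the WT libraries, 491 to 671 in those of Pld6 KO, 314 and 491 in those of Dnmt3l KO and 557, 648 and 602 in those of DKO at P0. All 3 DKO libraries lay above both WT and both Dnmt3l KO libraries. DKO exceeded Dnmt3l KO by a log2 difference of 0.58 (SE 0.21, FDR 0.188, edgeR), and this was 0.29 without replicate 1 of Dnmt3l KO (FDR 0.803, edgeR). Zim1, its neighbour, was at 64.5 and 70.0 CPM in Dnmt3l KO and 79.9, 121 and 108 in DKO, a log2 difference of 0.62 (SE 0.20, FDR 0.156, edgeR). At L/Z, Peg3 was at 18.5 to 36.3 CPM and no group stood apart.

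Mest (chr6:30733506-30748466) was at 232 and 284 CPM in the WT libraries, 325, 340, 269 and 566 in those of Pld6 KO, 235 and 367 in those of Dnmt3l KO and 297, 335 and 307 in those of DKO at P0. Its log2 difference from WT was 0.54 in Pld6 KO (SE 0.27, FDR 0.963, edgeR), where replicate 4 was the highest library. DKO lay just above WT (0.28, SE 0.28, FDR 0.850, edgeR). Grb10 (chr11:11930499-12037428) was at 423 and 580 CPM in WT and 468 to 684 CPM in all 9 mutant libraries, with every group overlapping. At L/Z, Grb10 was at 95.5 and 80.8 CPM in the WT libraries, 105 and 143 in those of Pld6 KO and 55.8 and 94.7 in those of Dnmt3l KO. Pld6 KO lay above WT (0.49, SE 0.27, FDR 0.599, edgeR), and Dnmt3l KO lay below Pld6 KO by a log2 difference of -0.71 (SE 0.27, FDR 0.221, edgeR). Mest was at 3.91 to 14.8 CPM at L/Z, with overlapping groups.

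Relations of the genes with each other and with cell type markers were examined across the 11 P0 libraries of all genotypes. Of 85 relations of log2 CPM (45 pairs of the genes and each gene against summed markers of 4 cell types), 4 had an adjusted p under 0.05 for Pearson's r and 0 for Spearman's rho (permutation tests, two-sided, 100000 resamples). Libraries were permuted without regard to genotype, so these p-values do not separate variation within genotypes from differences between them. Mest went with the summed level of 7 peritubular and interstitial mesenchyme markers, with r = 0.88 (p = 0.00089, adjusted p = 0.0378, permutation) and rho = 0.72 (p = 0.0160, adjusted p = 0.231, permutation). This r was 0.61 without the 2 libraries farthest from the median in Mest and 0.88 for deviations from genotype means. Mest and Cdkn1c had r = 0.85 (p = 0.00059, adjusted p = 0.0378, permutation) and rho = 0.80 (p = 0.00497, adjusted p = 0.211, permutation), with r = 0.69 without those 2 libraries and 0.82 within genotypes. Cdkn1c and Grb10 had r = 0.79 (adjusted p = 0.0588, permutation) and 0.80 (adjusted p = 0.0692, permutation) with the mesenchyme markers. These were 0.49 and 0.23 without the 2 libraries farthest in each gene, so that they rest on those libraries. For deviations from genotype means r was 0.69 and 0.94. Mest and Grb10 also had r = 0.75 each with 5 Leydig cell markers (adjusted p = 0.108 and 0.0830, permutation), with 0.32 and 0.49 without those libraries and 0.85 and 0.68 within genotypes.

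The mesenchyme marker sum was 3352 and 4385 CPM in the WT libraries, 4765 to 7771 in those of Pld6 KO, 4053 and 4670 in those of Dnmt3l KO and 4609 to 5756 in those of DKO, none of the 7 markers being at 0. It was highest in replicate 4 of Pld6 KO, the library with the most Mest (566 CPM), Cdkn1c (119 CPM) and Grb10 (684 CPM). The Leydig sum was also highest there, at 3577 CPM against 1252 to 2642 in the other 10 libraries. WT replicate 1 held the lowest mesenchyme sum and the lowest of all 3 genes. The part of these cells in the values of Mest, Cdkn1c and Grb10 was not tested. The genes most like Mest were Fstl1 (r = 0.95), Gpc3 (r = 0.92) and Col3a1 (r = 0.92), and those most like Grb10 were Dpt (r = 0.93), Heph (r = 0.92) and Dcn (r = 0.92). Col3a1, Dpt and Dcn encode proteins of the extracellular matrix, and Dcn is among the 7 markers. For Cdkn1c they were Gm14391 (r = 0.94), Prss23 (r = 0.93) and Meis3 (r = 0.91).

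**Figure D5:**
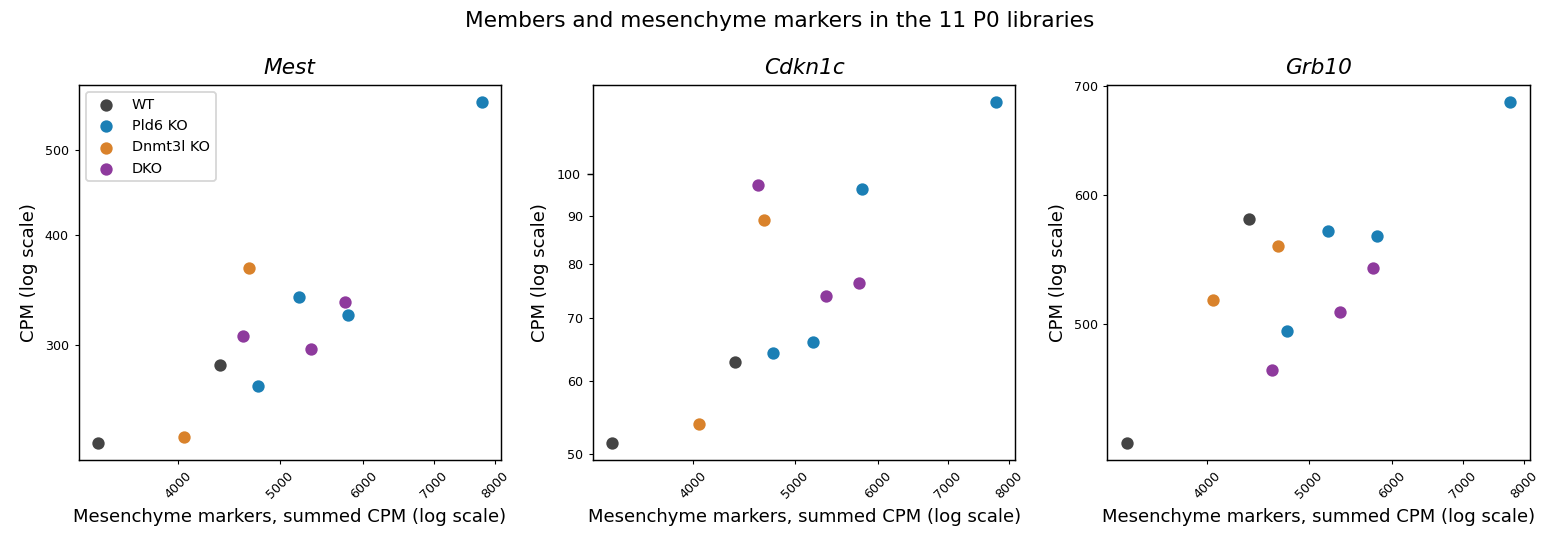
CPM of Mest, Cdkn1c and Grb10 against the summed CPM of 7 mesenchyme markers in the 11 P0 libraries, on log axes, coloured by genotype. The Pld6 KO library at upper right (replicate 4, marker sum 7771 CPM) and the WT library at lower left (replicate 1, 3352 CPM) mark the ends of all 3 panels.

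Other pairs did not involve these markers. Snrpn and Nnat had r = 0.79 (p = 0.00185, adjusted p = 0.0482, permutation) and rho = 0.85 (p = 0.00137, adjusted p = 0.116, permutation), with r = 0.79 without the 2 libraries farthest in Snrpn and 0.67 within genotypes. Igf2r and Peg10 had r = 0.82 (p = 0.00227, adjusted p = 0.0482, permutation) and rho = 0.65 (p = 0.0330, adjusted p = 0.312, permutation), with r = 0.52 without the 2 libraries farthest in Igf2r. The genes most like Igf2r were Mul1 (r = 0.96), Nrip1 (r = 0.95) and 9430020K01Rik (r = 0.95), and those most like Peg10 were Atp6v0a1 (r = 0.97), Lasp1 (r = 0.97) and Fbn2 (r = 0.97). For Peg3 they were Bicc1 (r = 0.95), Nkiras2 (r = 0.93) and Adamtsl4 (r = 0.91), for Snrpn Snrpc (r = 0.94), Nlgn3 (r = 0.93) and Adamts15 (r = 0.92), for Plagl1 Zfp781 (r = 0.90), Hspb6 (r = 0.90) and Ints9 (r = 0.90), and for Nnat Rab5c (r = 0.90), Arsb (r = 0.87) and Gm6682 (r = 0.86). These values share libraries and depth and were chosen as the highest of 12546, so they describe likeness only.

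Neighbours in the same imprinted clusters were also without a call. Of 28 listed neighbours, 19 passed the filter at L/Z and 25 at P0, and 0 were called in any of the 11 comparisons (edgeR). At an unadjusted p under 0.05, 0 of 19 were found in Pld6 KO and 3 of 19 in Dnmt3l KO against WT at L/Z, where 9.17% and 26.7% of all genes were. At P0 there were 1, 1 and 0 of 25 for Pld6 KO, Dnmt3l KO and DKO, against 5.06%, 12.9% and 7.97% of all genes. The most abundant neighbour of each cluster was followed. At P0, Ndn of the Snrpn cluster was at 117 to 184 CPM, Copg2 of the Mest cluster at 146 to 300.5, Cd81 of the Kcnq1 cluster at 380 to 624, Cobl of the Grb10 cluster at 3.88 to 16.5 and Ppp1r9a of the Peg10 cluster at 134 to 223 CPM. At L/Z, Ube3a was at 62.8 to 105 CPM, Nap1l4 at 209 to 266, Copg2 at 174 to 282, Cobl at 13.9 to 24.7 and Ppp1r9a at 16.3 to 49.7, while Zim1 (1.11 to 2.71) and Slc22a3 of the Igf2r cluster (0 to 0.315) were scarcely detected. Kcnq1, in antisense to Kcnq1ot1, was at 0.143 to 1.10 CPM at L/Z and 0.159 to 0.906 CPM at P0.

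Other imprinted loci and the factors that keep imprints were read in the same way. Of 12 genes at other maternally methylated loci, all 12 were tested at both stages and 0 were called in any comparison (edgeR). At an unadjusted p under 0.05 there were at most 2, in Dnmt3l KO against WT at L/Z (26.7% of all genes) and in the stage difference of Dnmt3l KO (17.2%). Of 9 genes at paternally methylated loci, whose marks are set in prospermatogonia, 8 passed the filter in L/Z cells and all 9 in P0 testes. Of these, 1 was called, Dlk1 in Dnmt3l KO against WT at L/Z. Dlk1, an inhibitor of adipocyte differentiation, was at 37.7 and 31.8 CPM in the WT libraries, 23.1 and 24.1 in those of Pld6 KO and 18.8 and 16.1 in those of Dnmt3l KO, and fell by 1.00 on the log2 scale in Dnmt3l KO (SE 0.25, FDR 0.0390, edgeR), in a comparison where 5.47% of all genes were called. The fold passed the 2-fold threshold only narrowly. Summed Leydig markers, low throughout, were 17.9 and 13.7 CPM in the WT libraries, 10.5 and 7.57 in those of Pld6 KO and 6.599 and 6.298 in those of Dnmt3l KO, the same order of groups as for Dlk1, and up to 4 of the 5 were at 0 in a library. The Sertoli sum was also lowest in Dnmt3l KO, and the part of these cells in the Dlk1 values was not tested. Of 9 imprint factors, among them Zfp57, Trim28 and Dnmt1, 0 were called in any comparison (edgeR). At an unadjusted p under 0.05 there were at most 4, in Dnmt3l KO against WT at L/Z, where 26.7% of all genes were. Whether Dlk1 differed from the 10 genes in its response was not tested.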

How the data were processed

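Poly(A)+ libraries (TruSeq stranded mRNA) were sequenced as single 50-base reads (L/Z) or paired 100-base reads (P0). Per the labels and methods, the authors aligned them to mm10 (GRCm38) with TopHat2 and quantified RefSeq genes with Cuffdiff, in versions and with a strand option not given in the sources used here. The deposited table of each stage holds estimated counts of fragments and FPKM, the authors' values per kilobase of transcript scaled to library totals, for every library. Of the estimated counts, 97.8% (L/Z) and 97.7% (P0) were whole numbers. They were rounded for testing, after 6 and 2 genes without a valid estimate were left out.

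CPM was computed with edgeR from the rounded counts and library totals scaled by TMM. All groups of a stage were fitted together with edgeR 4.0.16 (R 4.3.3, quasi-likelihood test, TMM, filterByExpr), which left 14662 (L/Z), 15901 (P0) and 16547 genes (14 WT and single mutant libraries of both stages, for the differences between stages). A gene was called at an FDR under 0.05 and a change over 2-fold. No fold threshold was applied to the departure from additivity or to the stage differences. Alternatives were DESeq2 1.42.0, limma 3.58.1 on log2(FPKM + 1) and log2(FPKM + 0.1), other scalings and filters, a replicate block and leaving out each library. The fit was tested on simulated data. Libraries were grouped by their labels. Members and gene lists were chosen with earlier results of these data known. Named genes were the 10 members, the most abundant neighbour of each cluster, the 3 genes most like each member and any listed gene called, while Zim1, Malat1, Lars2, Snurf, Airn, Kcnq1 and Zfp57 were named for their link to a member or its values. Promoter sequences are RefSeq's (GRCm38.p6).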

Additional observations from a re-analysis of the deposited data

Results flagged for a closer look

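Kcnq1ot1 was at 126 CPM in replicate 1 of P0 Pld6 KO, farther from the other 3 replicates (34.4 to 48.1 CPM) than Dixon's 95% limit allows. This check, run for each of the 10 genes in these 4 libraries, passes by chance in about 1 of 20 groups. Malat1 was also highest of the 4 in that library (3718 CPM), and its part in the Kcnq1ot1 value was not tested.

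In Dnmt3l KO, 2 genes lay above WT in every L/Z library and below WT in every P0 library. Of all genes, 28.1% were apart and higher at L/Z and 24.3% apart and lower at P0. The share with both was not computed. For Igf2r the log2 effect at L/Z minus that at P0 was 1.11 (FDR 0.115, edgeR), and for Snrpn it was 0.82 (FDR 0.294, edgeR), so neither difference passed the threshold.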

How the results depend on the processing

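Of 214 counts of called members recomputed under alternatives over the 11 comparisons, 198 were 0, as reported, and 16 were 1. Peg10 was the 1 gene called in Dnmt3l KO against WT and against Pld6 KO at L/Z without a filter on low counts and with the DESeq2 Wald test. Kcnq1ot1 was the 1 gene called in DKO against WT with the compared groups fitted alone, and Igf2r the 1 in the stage difference of Dnmt3l KO with the DESeq2 Wald test. Leaving out 1 library gave 0 to 1 called members in Dnmt3l KO against WT and against Pld6 KO at L/Z and in DKO against Dnmt3l KO, and 0 elsewhere. The causes were not tested. Over all alternatives the log2 difference of Peg10 ranged from -1.60 to -0.56 (FDR 0.0243 to 0.481) against WT and from -2.04 to -1.09 (FDR 0.00613 to 0.473) against Pld6 KO, that of Kcnq1ot1 in DKO from 0.69 to 1.83 (FDR 0.0303 to 1) against WT, and the stage difference of Igf2r from 0.85 to 1.34 (FDR 0.0448 to 0.343).

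The replicate numbers were not taken to pair the libraries, since the labels tie them to nothing shared and not every pair deviated together. Deviations from group means correlated at 0.48 between WT and Pld6 KO at L/Z, at -0.14 and -0.13 with Dnmt3l KO, and at -0.33 to 0.27 at P0. With the replicate block, 1 member was called in Dnmt3l KO against WT at L/Z (Peg10, FDR 0.0243, edgeR) and 1 in DKO against WT (Kcnq1ot1, log2 difference 1.78, FDR 0.0491, edgeR), and the block changed no other count. With the numbers crossed for Dnmt3l KO, a pairing chosen after seeing the data, 1 member was called in Dnmt3l KO against Pld6 KO.

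Of 2137 single values under alternatives, 117 changed sign, none of them called, and 19 of these arose with the offset for GC content and length, which moved the median of all genes by 0.12 and 0.11 in the Dnmt3l KO comparisons at L/Z. Depth limits Nnat, Snrpn and Mest most at L/Z. Differences between stages were not fitted without a filter, with limma or with a block.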
